A study of Mus musculus with 16 samples.

Results

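Levels of 10 endothelial genes were followed across whole-liver RNA sequencing libraries of aged and young mice. The genes were a set list of symbols, chosen with earlier results of these data known. They were matched to the gene identifiers of the GRCm38 mouse annotation. All 10 were found among 55471 identifiers in the files, and all 10 had enough fragments to be among 17046 genes tested. Of them, 7 mark the sinusoidal endothelium, namely Dnase1l3, Clec4g, Stab1, Stab2, Lyve1, Oit3 and Fcgr2b. The other 3, Pecam1, Vwf and Selp, are found in vascular endothelium generally.

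Sinusoidal endothelial cells line the narrow blood channels between plates of hepatocytes. They are perforated by open pores, lack a continuous basement membrane, and clear waste proteins, glycans and immune complexes from blood through scavenger and Fc receptors. Endothelium of veins and arteries carries fewer of these receptors and more von Willebrand factor and adhesion molecules. The same cells also give Wnt signals to hepatocytes around the central vein.

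The libraries came from frozen liver portions in 4 groups of 4, 16 libraries in all. PAM II and PAM I were groups of 102-week-old mice with antibiotic exposure, which the series title places in early life. The aged control group was also 102 weeks old and had no antibiotics, and the young group was 12 weeks old without antibiotics. The titles call the PAM groups ABX groups, and the labels used here give no drug, dose, strain, sex, litter or cage, nor what PAM stands for. The free-text description of the young libraries calls them aged, so their age and group fields were used. The labels do not say in so many words that each library is a different animal, and p-values measure only the spread between these samples.

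Each library held between 36968993 and 52090914 fragments assigned to genes. Transcripts of skeletal muscle, summed over 13 marker genes, were uneven. They came to between 14.7 and 127.9 CPM (fragment counts scaled by library size) in 6 aged livers, namely PAM II replicates 2, 3 and 4, PAM I replicates 1 and 2 and aged control replicate 2, against at most 2.34 CPM in the other 6. Young livers ranged between 1.098 and 131.8 CPM. PAM II replicate 1 had the highest summed levels among the 16 livers for the Kupffer cell (1867 CPM), platelet (41.55 CPM) and erythroid (1525 CPM) lists. The same held for the general endothelial (554.4 CPM) and stellate cell (844.6 CPM) lists. In whole liver, fewer cells of a type and less RNA per cell cannot be told apart, and this holds for every level below.

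On GRCm38, Clec4g (ENSMUSG00000074491) is on chromosome 8 from 3707064 to 3720651, and Dnase1l3 (ENSMUSG00000025279) on chromosome 14 from 7964533 to 7994573, both on the minus strand. Stab1 (ENSMUSG00000042286) is on chromosome 14 from 31139013 to 31168641, and Stab2 (ENSMUSG00000035459) on chromosome 10 from 86841198 to 87008025, also on the minus strand. Oit3 shares chromosome 10, Lyve1 is on 7, Pecam1 on 11 and Vwf on 6. Fcgr2b and Selp (ENSMUSG00000026580, from 164115264 to 164150026 on the plus strand) are both on chromosome 1.

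Promoters from the RefSeq table of GRCm38.p6, which spans 250 bases before to 50 after each gene's start, were found for 5 of the 10 genes. They were searched on both strands for AGGAAG, a core recognized by ETS factors such as Erg and Fli1, and for AGATAA, recognized by GATA factors such as Gata4, because both families act in endothelium. AGGAAG was in 35.4% of all 32851 promoters in the table and AGATAA in 11.2%. The 4 promoters shown are those that held AGGAAG. They belong to 3 sinusoidal genes with lower means in aged livers, Clec4g, Stab1 and Stab2, and to Selp, which had its highest mean in PAM II. The promoter of Fcgr2b, which also had a lower mean in aged livers, held neither site and is not shown. Capitals mark AGGAAG, or CTTCCT where it is on the other strand.
Clec4g: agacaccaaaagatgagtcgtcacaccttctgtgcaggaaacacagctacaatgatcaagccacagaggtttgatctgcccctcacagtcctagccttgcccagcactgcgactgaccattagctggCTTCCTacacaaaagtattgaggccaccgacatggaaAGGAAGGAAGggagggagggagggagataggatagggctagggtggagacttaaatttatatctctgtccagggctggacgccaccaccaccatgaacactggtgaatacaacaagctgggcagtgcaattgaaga
Stab1: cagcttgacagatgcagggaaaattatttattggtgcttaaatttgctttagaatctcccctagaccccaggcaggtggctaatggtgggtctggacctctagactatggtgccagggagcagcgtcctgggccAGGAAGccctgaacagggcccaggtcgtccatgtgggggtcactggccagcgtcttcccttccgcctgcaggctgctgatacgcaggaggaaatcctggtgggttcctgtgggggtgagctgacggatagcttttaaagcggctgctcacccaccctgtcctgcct
Stab2: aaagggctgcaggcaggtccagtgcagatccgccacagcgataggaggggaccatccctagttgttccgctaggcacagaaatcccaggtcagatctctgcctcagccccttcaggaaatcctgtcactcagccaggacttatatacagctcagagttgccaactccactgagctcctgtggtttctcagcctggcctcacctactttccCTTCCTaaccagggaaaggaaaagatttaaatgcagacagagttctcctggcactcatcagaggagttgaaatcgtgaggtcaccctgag
Selp: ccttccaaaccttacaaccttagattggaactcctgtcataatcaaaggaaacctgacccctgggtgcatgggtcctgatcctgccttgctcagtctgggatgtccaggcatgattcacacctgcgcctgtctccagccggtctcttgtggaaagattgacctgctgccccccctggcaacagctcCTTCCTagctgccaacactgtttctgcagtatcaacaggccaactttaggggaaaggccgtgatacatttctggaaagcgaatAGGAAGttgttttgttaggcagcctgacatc

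The Clec4g window, chr8:3720602-3720901 on the minus strand, held 3 copies of AGGAAG, of which a pair overlap in one run. The Stab1 window (chr14:31168592-31168891, minus strand) and the Stab2 window (chr10:87007893-87008192, minus strand) held 1 each. The Selp window (chr1:164115014-164115313, plus strand) held 2, and that of Fcgr2b held none. AGATAA was in 0 of the 5 windows. These matches describe letters in the windows and are not evidence of binding.

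Scaled by exon length, Clec4g and Dnase1l3 were the most abundant of the 10 and Vwf and Selp the least. Clec4g, a C-type lectin of the sinusoidal surface, averaged 12.7 CPM per kilobase over the 16 livers, and Dnase1l3, a secreted nuclease that digests DNA in blood, 8.09. Oit3, a secreted protein that marks liver endothelium, averaged 6.44, Fcgr2b, the inhibitory Fc receptor that takes up immune complexes, 5.70, and the scavenger receptors Stab2 and Stab1 5.47 and 4.68 CPM per kilobase. Pecam1, the junctional protein CD31 of all endothelium, averaged 2.48, Lyve1, a hyaluronan receptor shared with lymphatic endothelium, 1.83, Vwf 0.550 and Selp, the adhesion protein P-selectin, 0.314 CPM per kilobase. In each pair of neighbours in this order the ranges over libraries overlapped. The lowest fragment count of any of the 10 in a library was 27, for Selp in aged control replicate 1.

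Several of the genes have other sources in liver. Selp and Vwf are also platelet and megakaryocyte genes, Fcgr2b is also a gene of B cells and macrophages, and Fcgr2b has close paralogs that may share its reads. Genes on the opposite strand overlap Clec4g, Stab1, Stab2, Fcgr2b and Selp. The overlapping gene of highest level was Gm16548 at Selp, with up to 14.96 CPM, and Nt5dc2 at Stab1 had up to 8.85 CPM. Per the file headers the counting used strand, which assigns such reads separately where the library keeps strand.

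**Figure D1:**
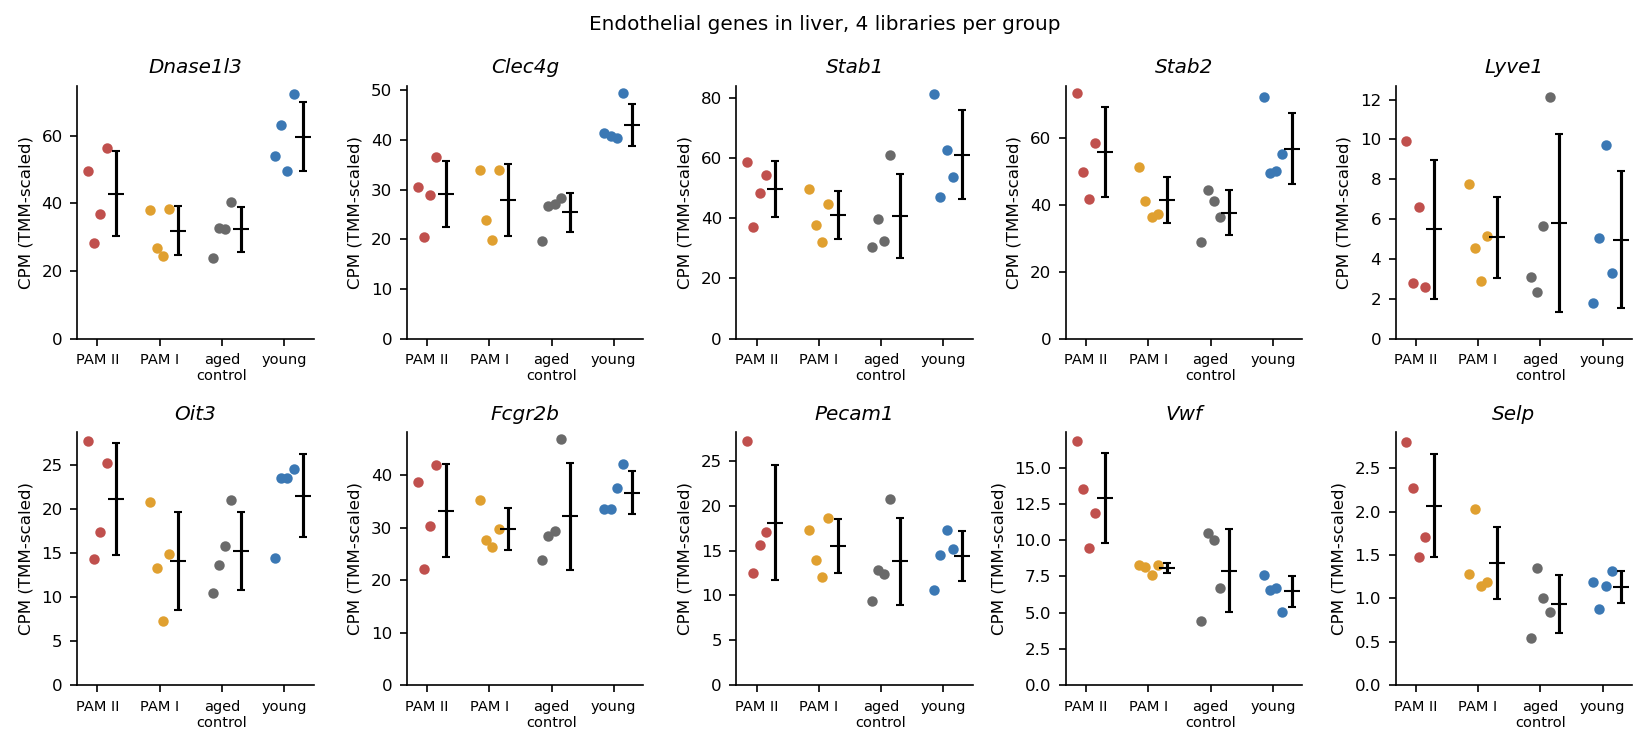
Levels of the 10 endothelial genes in CPM (y axis, from 0) in the 4 groups (x axis), with a dot per library and the mean ± SD beside each group. All 4 young livers lie above all 12 aged livers for Clec4g, and all 4 PAM II livers lie above the aged controls for Selp.

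The comparison of aged control with young livers asks what differed with age without antibiotics. Dnase1l3 and Clec4g were lower in aged control livers, by 46.0% and 40.9%. The other sinusoidal genes did not pass the test, and none of the 3 vascular genes did. The test was edgeR's quasi-likelihood F test over 17046 genes with Benjamini-Hochberg adjustment, and a gene was called at an adjusted p under 0.05. It called 2 of the 10 genes, both lower, against 1.31% of all genes tested called lower, 1.92% called higher and 3.23% called in either direction. At an unadjusted p under 0.05 there were 4 of the 10, all lower, against 8.68% of all genes lower and 19% in either direction. Because the genes were chosen with earlier results of these data known, such shares, here and below, are a description and no independent test.

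Dnase1l3 had 23.8, 32.5, 32.3 and 40.3 CPM in aged control livers, against 53.8, 63.2, 49.5 and 72.2 CPM in young livers. Every aged control liver lay below every young liver. The log2 fold change was -0.89 ± 0.22 (SE; 95% interval -1.36 to -0.42; edgeR adjusted p = 0.0395). Clec4g had 19.6, 26.8, 27.1 and 28.3 CPM in aged control livers, against 41.4, 40.8, 40.4 and 49.4 CPM in young livers. These groups did not overlap either, and the log2 fold change was -0.76 ± 0.19 (edgeR adjusted p = 0.0430). Both calls were close to the threshold: with 1 library left out in turn, Dnase1l3 was called in 2 of 8 fits (adjusted p 0.0406 to 0.134) and Clec4g in 0 of 8 (0.0584 to 0.138). Of 9 other settings, 5 called Dnase1l3 and 6 called Clec4g. Aged control replicate 1 had the lowest level of both genes among all 16 livers. Without it the edgeR adjusted p were 0.0963 for Dnase1l3 and 0.103 for Clec4g.

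The scavenger receptors had lower means in aged control livers without passing the test. Stab2, which clears hyaluronan and other glycans, had 28.7, 44.4, 41.1 and 36.2 CPM in aged control livers, against 72.1, 49.6, 50.1 and 55.0 CPM in young livers. Its groups did not overlap, and the log2 fold change was -0.59 ± 0.19 (edgeR adjusted p = 0.0951, and 0.0438 with DESeq2). Stab1, a related receptor, had 30.4, 39.6, 32.4 and 60.8 CPM in aged control livers, against 81.2, 47.0, 62.7 and 53.6 CPM in young livers. Aged control replicate 4 reached into the young range, and the log2 fold change was -0.58 ± 0.23 (adjusted p = 0.175). Thus 3 of the 10 genes were lower with no overlap, which 4.44% of all genes were in this comparison.

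Oit3 averaged 15.2 ± 4.42 CPM in aged control livers and 21.5 ± 4.73 CPM in young livers (SD, n = 4 each), with a log2 fold change of -0.50 ± 0.30 (edgeR adjusted p = 0.379). Fcgr2b averaged 32.2 ± 10.1 CPM in aged control livers and 36.7 ± 4.04 CPM in young livers, with -0.19 ± 0.21 on the log2 scale (adjusted p = 0.669). Lyve1 varied most among the 10, between 2.36 and 12.1 CPM in aged control livers and between 1.80 and 9.71 CPM in young livers. Its log2 fold change of 0.22 had an interval of -1.01 to 1.45, which spans a 2-fold difference in either direction. The vascular genes had log2 fold changes of 0.29 ± 0.23 for Vwf, -0.06 ± 0.26 for Pecam1 and -0.27 ± 0.30 for Selp, with overlapping groups and adjusted p of 0.548, 0.931 and 0.676.

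With all 12 aged livers set against the 4 young ones, the standard errors were smaller, and Dnase1l3 and Clec4g were again the called genes, both lower. This comparison mixes mice with and without antibiotics, shares its young livers and aged controls with the one above, and so is not a second test. Of the 10 genes 2 were called, both lower, where 4.99% of all genes were called lower, 6.12% higher and 11.1% in either direction. Unadjusted p were under 0.05 for 28.3% of all genes. Dnase1l3 had a lowest, median and highest level of 23.8, 34.7 and 56.5 CPM in aged livers, against 49.5, 58.5 and 72.2 CPM in young livers. Of the aged livers PAM II replicate 4, the highest, lay within the young range, and PAM II replicate 1 at 49.49 CPM lay just below its lower end of 49.54 CPM. The log2 fold change was -0.76 ± 0.17 (edgeR adjusted p = 0.0116).

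Clec4g had a lowest, median and highest level of 19.6, 27.7 and 36.5 CPM in aged livers, against 40.4, 41.1 and 49.4 CPM in young livers. It was the 1 gene of the 10 with no overlap between 12 aged and 4 young livers, a pattern that 1.81% of all genes showed in the lower direction. The log2 fold change was -0.65 ± 0.15 (edgeR adjusted p = 0.0135). Both genes were called in 15 of 16 fits that left out 1 library and in all 8 other settings. Without young replicate 4, which had the highest level of both genes, their adjusted p were 0.0612 for Dnase1l3 and 0.0626 for Clec4g.

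Of the genes not called, Stab1 had -0.485 ± 0.18 (edgeR adjusted p = 0.0917) and Stab2 -0.36 ± 0.15 (adjusted p = 0.1275) on the log2 scale. Stab1 was called when aged control replicate 4 was left out (adjusted p = 0.0249). Oit3 had -0.38 ± 0.24, Fcgr2b -0.21 ± 0.17 and Lyve1 0.13 ± 0.48, none of them called. Vwf, the carrier of clotting factor VIII that tethers platelets, had a log2 fold change of the other sign, 0.54 ± 0.20 (adjusted p = 0.0883). It had a lowest, median and highest level of 4.42, 8.87 and 16.8 CPM in aged livers, against 5.04, 6.62 and 7.57 CPM in young livers. Vwf was called by DESeq2 (adjusted p = 0.0470) and without aged control replicate 1 (0.0276), and Selp had 0.31 ± 0.25 and Pecam1 0.125 ± 0.21 with overlapping groups. The median log2 fold change was -0.38 among the 7 sinusoidal genes and 0.31 for the 3 vascular genes, beside -0.03 for all genes tested.

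**Figure D2:**
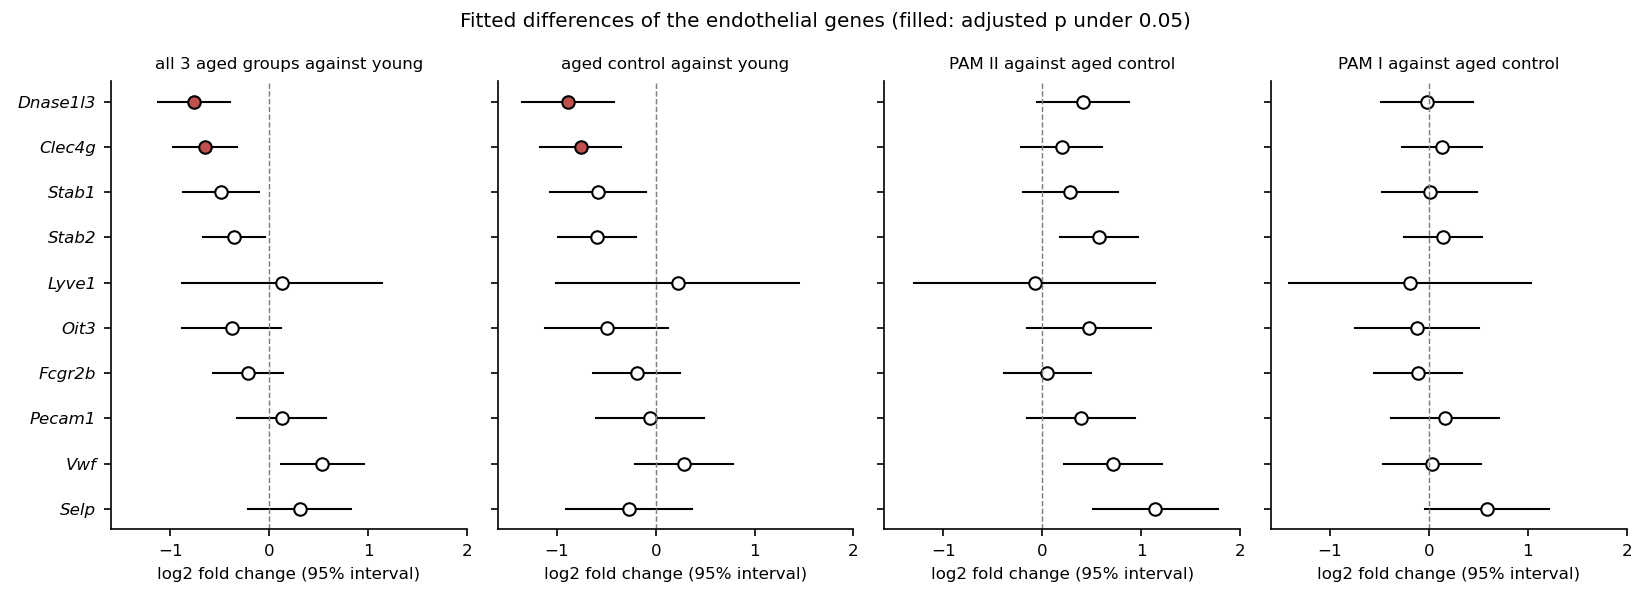
Fitted log2 fold changes (x axis, dot) with 95% intervals (line) for the 10 genes (rows) in 4 comparisons (panels), filled where the edgeR adjusted p was under 0.05. Dnase1l3 and Clec4g are filled in both comparisons with young livers, at -0.76 and -0.65 over all 3 aged groups, and no gene is filled in the comparisons of PAM II and PAM I with aged controls.

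Dnase1l3 and Clec4g also had lower levels in aged control livers relative to other endothelial transcripts. Of 30 general endothelial genes, such as Cdh5, Kdr and Eng, 27 had a negative log2 fold change in aged control against young livers. Their median was -0.235, and edgeR called none. At an unadjusted p under 0.05 by edgeR 4 were lower and 1 higher, where 19% of all genes passed in either direction. DESeq2 called 2 lower and limma voom 1, where these called 7.88% and 2.95% of all genes in either direction. Of all genes tested, 50.9% had negative values in this comparison. The summed levels of the 30 genes overlapped between the groups. Taken relative to the mean log2 CPM of these 30 genes in the same library, Dnase1l3 was 0.66 lower and Clec4g 0.53 lower in aged control livers on the log2 scale, and neither overlapped with young livers. Over all 12 aged livers the relative differences were -0.65 for Dnase1l3, with overlap, and -0.55 for Clec4g, without overlap. Stab1 and Stab2 had relative differences of -0.36 and -0.24 over all aged livers and overlapped. Against young livers, aged control livers also had negative relative differences for Stab1 (-0.37), Stab2 (-0.35), Oit3 (-0.27) and Selp (-0.07). The relative differences were positive for Vwf (0.46), Lyve1 (0.43), Pecam1 (0.14) and Fcgr2b (0.01), and these genes all overlapped, as did those just named. The share of all genes without overlap on this relative scale was not computed. These relative values carry no test. Of the hepatocyte markers, all 9 measured had negative fold changes in all aged against young livers, with a median of -0.34, none called by edgeR (5 at an unadjusted p under 0.05, 3 called by DESeq2 and 1 by limma voom), and summed levels of 67680 to 123100 CPM against 108200 to 118600 CPM. Kupffer cell markers went the other way, 13 of 14 positive with a median of 1.21, where 53.4% of all genes had negative values. Of the 14, 2 were called higher, against 6.12% of all genes. With 1 library left out, Vsig4 was called in 5 and Adgre1 in 6 of 16 fits. The Kupffer cell sums were 255.7 to 1867 CPM in aged livers and 282.6 to 396.3 CPM in young livers. With the Kupffer list as a covariate, Dnase1l3 had -0.723 and Clec4g -0.575 on the log2 scale, both called. No marker of either list was at 0 in all 16 libraries, and the part of these cells in the endothelial values was not tested.

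The counts for other endothelial lists stand beside 4.99% of all genes called lower and 6.12% higher by edgeR in all aged against young livers. In either direction edgeR called 11.1% of all genes, DESeq2 17.9% and limma voom 11.9%. Of 13 further sinusoidal genes 2 were lower and 0 higher in all aged against young livers, with a median of -0.23. Plxnc1, a semaphorin receptor, averaged 6.61 ± 2.05 CPM in 12 aged livers and 12.4 ± 3.30 CPM in 4 young livers (log2 fold change -0.93 ± 0.20, edgeR adjusted p = 0.00831). Ehd3, a membrane-trafficking protein, averaged 42.6 ± 12.2 CPM in aged livers and 67.5 ± 5.12 CPM in young livers (-0.68 ± 0.17, adjusted p = 0.0213). Both overlapped between groups. DESeq2 called 4 of the 13 lower and limma voom 5. Without young replicate 4 neither Plxnc1 (adjusted p = 0.0561) nor Ehd3 was called, and Ehd3 also lost its call without young replicate 2 and with the Kupffer cell covariate (highest adjusted p 0.0597). In aged control against young livers 0 of the 13 were called by edgeR or limma voom and 2 by DESeq2, 5 were lower at an unadjusted p under 0.05, and Ehd3 had -0.76 ± 0.22 (adjusted p = 0.0723).

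Genes of the central vein zone were called in both directions. Kit, a receptor tyrosine kinase of central vein sinusoids, averaged 2.15 ± 0.645 CPM in aged livers and 5.01 ± 1.53 CPM in young livers with no overlap (log2 fold change -1.23 ± 0.22, edgeR adjusted p = 0.00300). Wnt2, a signal from endothelium to hepatocytes, averaged 0.953 ± 0.433 CPM in aged livers and 2.34 ± 1.17 CPM in young livers (-1.30 ± 0.34, adjusted p = 0.0225). Fabp4, a fatty acid carrier of capillary endothelium and of fat cells, averaged 20.8 ± 12.4 CPM in aged livers and 6.48 ± 0.847 CPM in young livers with no overlap (1.64 ± 0.37, adjusted p = 0.0114). Thus 2 of 7 genes of this list were lower and 1 higher. Kit was called in all 16 fits that left out 1 library and in all 8 other settings. Wnt2 was not called without young replicate 2 or without young replicate 4 (highest adjusted p 0.130), and Fabp4 was not called without aged control replicate 4 and young replicate 1 together (adjusted p = 0.0583). Of 8 portal zone genes none was called by edgeR or limma voom (3 at an unadjusted p under 0.05, and 3 called by DESeq2), and Msr1, a scavenger receptor shared with macrophages, had 1.02 ± 0.34 (adjusted p = 0.0661).

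Among the 30 general endothelial genes, 2 were lower and 0 higher in all aged against young livers, which is near the share of all genes called lower (4.99%) and is no result about the list as a whole. Cldn5, a tight junction protein, averaged 4.88 ± 1.14 CPM in aged livers and 8.29 ± 0.827 CPM in young livers with no overlap (-0.76 ± 0.19, edgeR adjusted p = 0.0191). Tie1, an endothelial receptor kinase, averaged 11.53 ± 2.69 CPM in aged livers and 16.7 ± 1.55 CPM in young livers (-0.54 ± 0.16, adjusted p = 0.0463). Cldn5 was not called without young replicate 4, and Tie1 was called in 5 of 16 fits that left out 1 library and in 3 of 8 other settings. Without the 6 aged livers with muscle transcripts neither was called, with log2 fold changes of -0.774 for Cldn5 and -0.492 for Tie1. That fit kept PAM II replicate 1 alone for its group, and it kept all young livers, also those with muscle transcripts. Of 9 tested genes of capillary-type and activated endothelium, out of 11 listed, 1 was higher and 1 lower. Vcam1, a leukocyte adhesion protein also made by other cells, averaged 24.9 ± 15.3 CPM in aged livers and 6.63 ± 3.42 CPM in young livers (1.85 ± 0.51, adjusted p = 0.0317). Ephb4, an ephrin receptor of veins, averaged 21.04 ± 4.30 CPM in aged livers and 31.5 ± 2.17 CPM in young livers (-0.59 ± 0.13, adjusted p = 0.0107). Ephb4 was also called in aged control against young livers, at -0.67 ± 0.17 (adjusted p = 0.0391). Over all aged livers Ephb4 was called in all 16 fits that left out 1 library, but not without the 6 livers with muscle transcripts (adjusted p = 0.0524). Vcam1 was called in 13 of those 16 fits, each miss being a young liver left out (replicates 1, 2 and 4), and in 5 of 8 other settings.

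**Figure D3:**
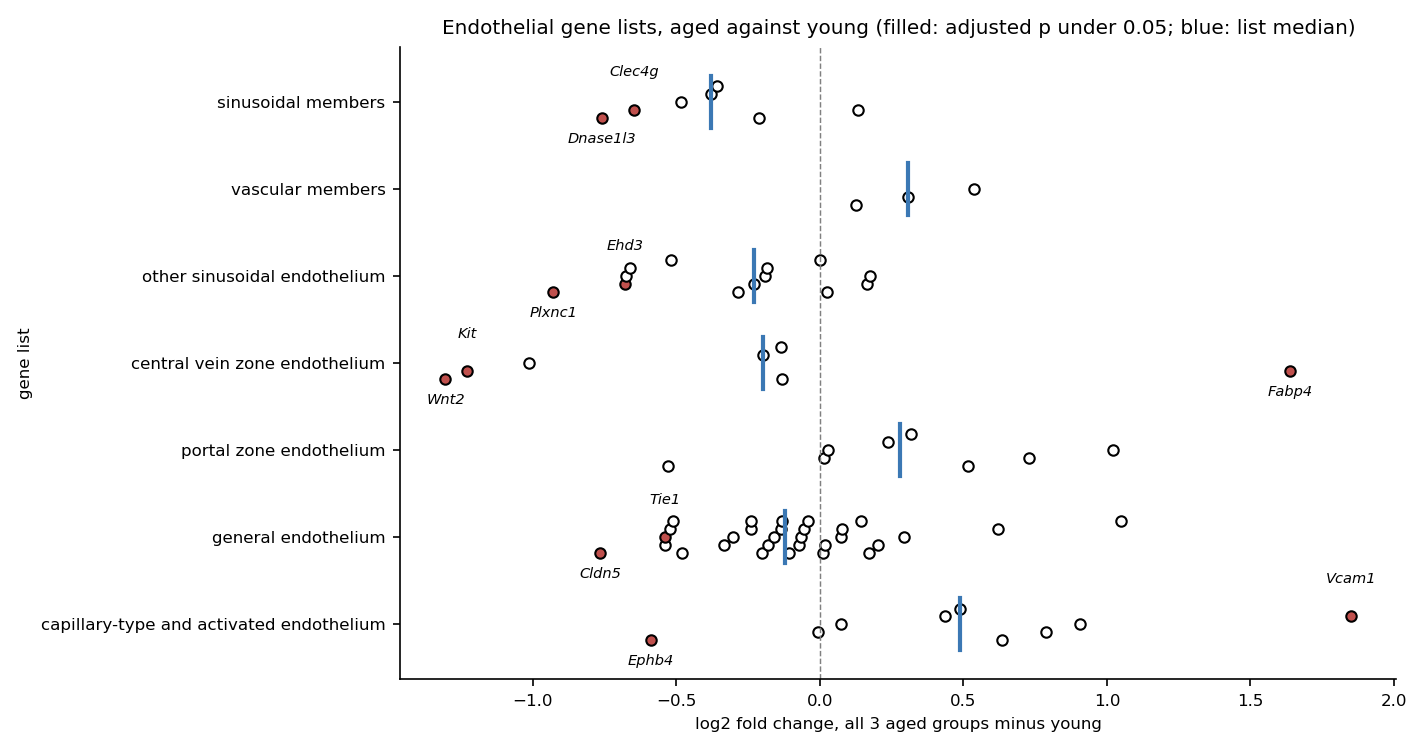
Fitted log2 fold change of all 3 aged groups minus young (x axis) for each tested gene of 7 endothelial lists (rows; vertical offsets within a row only separate the dots), filled and named where the edgeR adjusted p was under 0.05, with list medians in blue. The sinusoidal list has its median at -0.38 and the list of capillary-type and activated endothelium at 0.49.

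No basement membrane gene was called in all aged against young livers (0 of 11 by edgeR, DESeq2 and limma voom, 1 at an unadjusted p under 0.05, median 0.017), and Nid1, which links laminin and collagen, had 0.69 ± 0.31 (adjusted p = 0.153). Among 13 ligands that act on endothelium 0 were called by edgeR (5 at an unadjusted p under 0.05, 2 called by DESeq2 and 5 by limma voom), and Angpt1, the ligand of the Tie2 receptor, had 1.45 ± 0.45 (adjusted p = 0.0516). Nrp2, a VEGF-C coreceptor on the lymphatic list, averaged 33.0 ± 5.77 CPM in aged livers and 17.97 ± 6.25 CPM in young livers (0.87 ± 0.19, edgeR adjusted p = 0.00789), and was also called in aged control against young livers (0.88 ± 0.22, adjusted p = 0.0384). It was the 1 called of 4 measured genes on that list, and over all aged livers lost its call only without the 6 livers with muscle transcripts (adjusted p = 0.0860), among 16 fits with 1 library left out and 8 other settings.

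The antibiotic comparisons ask what differed between exposed and unexposed aged mice. In PAM II against aged control livers, 9 of the 10 genes had positive log2 fold changes and Selp and Vwf had the largest, but none passed the test. Of all genes tested, 48.6% had negative values. Many of the 10 genes varied together among aged livers, with 21 of 45 pairs at an adjusted permutation p under 0.05, as given below. The signs of the 10 genes are therefore not separate observations. The share of all genes called was 0% by edgeR, and limma voom and DESeq2 also called 0 genes. At an unadjusted p under 0.05 there were 465 genes (2.73%), 1.23% of all genes being higher, and 3 of the 10 genes were among these, all higher.

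Selp had 2.80, 2.28, 1.48 and 1.71 CPM in PAM II livers, against 0.545, 1.35, 1.01 and 0.846 CPM in aged control livers. All PAM II livers lay above all aged controls, which 0.81% of all genes showed in the higher direction. The log2 fold change was 1.14 ± 0.30 (interval 0.52 to 1.77; unadjusted p = 0.00141 by edgeR, rank 8 of 17046 genes, adjusted p = 1). Vwf had 16.8, 13.5, 9.44 and 11.9 CPM in PAM II livers, against 4.42, 10.5, 9.995 and 6.68 CPM in aged control livers. PAM II replicate 3 lay within the aged control range, and the log2 fold change was 0.71 ± 0.23 (edgeR unadjusted p = 0.00769, adjusted p = 1). Stab2 had 73.2, 49.9, 41.5 and 58.4 CPM in PAM II livers, against the aged control values above, with 0.57 ± 0.19 (edgeR unadjusted p = 0.00757, adjusted p = 1).

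PAM II replicate 1 had the highest level of all 16 livers for Selp, Vwf, Stab2, Pecam1 and Oit3, and also the highest platelet, erythroid and Kupffer cell sums. Its sums were also the highest for the general endothelial (554.4 CPM), stellate cell (844.6 CPM), basement membrane (264.1 CPM) and portal zone (169.0 CPM) lists. Without PAM II replicate 1 the log2 fold changes were 0.96 for Selp, 0.56 for Vwf and 0.41 for Stab2. Aged control replicate 1 had the lowest level of all 16 livers for Selp, Vwf, Stab2, Pecam1, Dnase1l3, Clec4g and Stab1. Its general endothelial (302.5 CPM) and stellate cell (407.1 CPM) sums were also the lowest. Without that liver Selp had a log2 fold change of 0.946. Over the fits with 1 library left out, the lowest values were 0.946 for Selp, 0.507 for Vwf and 0.409 for Stab2. Platelet markers, summed over 10 genes of which none was at 0 in all 16 libraries, came to 4.36 to 41.6 CPM in PAM II livers and 3.86 to 19.5 CPM in aged control livers. Of 7 platelet genes tested none was called by edgeR, DESeq2 or limma voom, and none had an unadjusted p under 0.05. PAM II replicate 2 had the second highest Selp level with a platelet sum of 7.52 CPM. Erythroid sums were 211.5 to 1525 CPM in PAM II livers and 124.6 to 242.8 CPM in aged control livers, and muscle sums 1.75 to 127.9 CPM and 0.811 to 14.7 CPM. At an unadjusted p under 0.05 by edgeR, 6 of 7 erythroid genes and 9 of 13 muscle genes were higher in PAM II livers. This held for 1.23% of all genes, and none of these erythroid or muscle genes was called. With the muscle list as a covariate Selp had 1.06, Vwf 0.72 and Stab2 0.50 on the log2 scale. The part of blood cells in these values was not tested.

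The sinusoidal genes of highest level overlapped between PAM II and aged control livers. Dnase1l3 had 49.5, 28.4, 36.9 and 56.5 CPM in PAM II livers (log2 fold change 0.41 ± 0.22), and Clec4g had 30.5, 20.4, 28.9 and 36.5 CPM (0.20 ± 0.19), against the aged control values above. The intervals ran from -0.06 to 0.88 for Dnase1l3 and from -0.21 to 0.60 for Clec4g. Oit3 had 0.47 ± 0.30, Pecam1 0.39 ± 0.26, Stab1 0.28 ± 0.23, Fcgr2b 0.05 ± 0.21 and Lyve1 -0.08 ± 0.58. Of the 30 general endothelial genes, 27 had positive fold changes (median 0.29, none called by edgeR, DESeq2 or limma voom, 2 at an unadjusted p under 0.05). Flt1, a VEGF receptor, averaged 13.96 ± 4.57 CPM in PAM II livers and 8.43 ± 1.55 CPM in aged control livers with no overlap (0.73 ± 0.23, edgeR unadjusted p = 0.00663, adjusted p = 1). Nid2 of the basement membrane averaged 14.1 ± 2.54 CPM in PAM II livers and 19.8 ± 2.05 CPM in aged control livers (-0.49 ± 0.16, edgeR unadjusted p = 0.00783, adjusted p = 1).

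In PAM I against aged control livers no difference in the 10 genes passed the test. None of the 10 genes was called by edgeR, 0 had an unadjusted p under 0.05, and DESeq2 and limma voom called 0 of them, where 0% of all genes were called by edgeR, 9.4% had an unadjusted p under 0.05, and DESeq2 called 15 genes. Selp had 1.28, 2.03, 1.14 and 1.19 CPM in PAM I livers, against the aged control values above, and a log2 fold change of 0.59 ± 0.30 with an interval of -0.04 to 1.22 (edgeR adjusted p = 0.547). Dnase1l3 had 38.0, 26.7, 24.5 and 38.3 CPM in PAM I livers (-0.02 ± 0.22, interval -0.48 to 0.45). Clec4g had 34.0, 23.8, 19.9 and 33.9 CPM in PAM I livers (0.14 ± 0.19, interval -0.27 to 0.54). The other 7 genes had log2 fold changes between -0.19 for Lyve1 and 0.16 for Pecam1. In all 3 comparisons among aged livers edgeR, DESeq2 and limma voom called no gene on any of the endothelial lists.

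In PAM II against PAM I livers all 10 genes had positive log2 fold changes, between 0.06 for Clec4g and 0.68 for Vwf, where 49.1% of all genes had negative values. None was called by edgeR, where 0% of all genes were called and 4.56% had an unadjusted p under 0.05, and 2 of the 10 had an unadjusted p under 0.05, both higher, against 2.27% of all genes. Vwf had 8.31, 8.13, 7.57 and 8.31 CPM in PAM I livers, all below the PAM II values given above, as 1.76% of all genes were. Its log2 fold change was 0.68 ± 0.23 (edgeR unadjusted p = 0.0104, adjusted p = 0.880), and without PAM II replicate 1 it was 0.54. Stab2 had 51.3, 41.0, 36.2 and 37.1 CPM in PAM I livers, overlapping PAM II, and a log2 fold change of 0.43 ± 0.19 (adjusted p = 0.880). The comparisons of PAM II and PAM I with aged controls share those controls, so their values are not independent of each other.

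The 10 genes differed in how closely they varied together among livers. Over the 12 aged livers the 45 pairs all had a positive Pearson r on log2 CPM, and 21 had an adjusted permutation p under 0.05 over the 45. Dnase1l3 and Clec4g had r = 0.887 (permutation p = 0.00019, adjusted p = 0.00157; Spearman 0.902, permutation p = 0.00017, adjusted 0.00127) and 0.821 without the 2 livers farthest from the median of Dnase1l3. Within the 6 aged livers with high muscle transcripts r was 0.884 and within the other 6 it was 0.891. The genes of a pair were measured in the same libraries and share their depth and the make-up of the liver portion. The 12 livers also came from 3 groups whose means were left in, so r includes differences between groups. Among the aged groups, Vwf, Selp and Stab2 all had their highest mean in PAM II (12.9, 2.07 and 55.8 CPM).

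Vwf and Selp had r = 0.876 over the 12 aged livers (permutation p = 0.00029, adjusted p = 0.00163; Spearman 0.755, permutation p = 0.00639, adjusted 0.0160). It was 0.655 without the 2 livers farthest from the median of Vwf, 0.451 in the 6 livers with high muscle transcripts and 0.953 in the other 6. Stab2 and Vwf had r = 0.894 (permutation p = 0.00027, adjusted p = 0.00163; Spearman 0.853, permutation p = 0.00091, adjusted 0.00409), 0.725 without the 2 farthest livers, and 0.512 and 0.955 in those sets of 6. Dnase1l3 and Selp had r = 0.378 (permutation p = 0.226, adjusted p = 0.275; Spearman 0.294, permutation p = 0.357, adjusted 0.433), 0.0800 without the 2 farthest livers, and -0.384 and 0.715 in those sets. Lyve1 had its highest r with Pecam1, 0.712 (permutation p = 0.0092, adjusted p = 0.0207; Spearman 0.601, permutation p = 0.0427, adjusted 0.0887), and 0.461 without the 2 farthest livers.

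**Figure D4:**
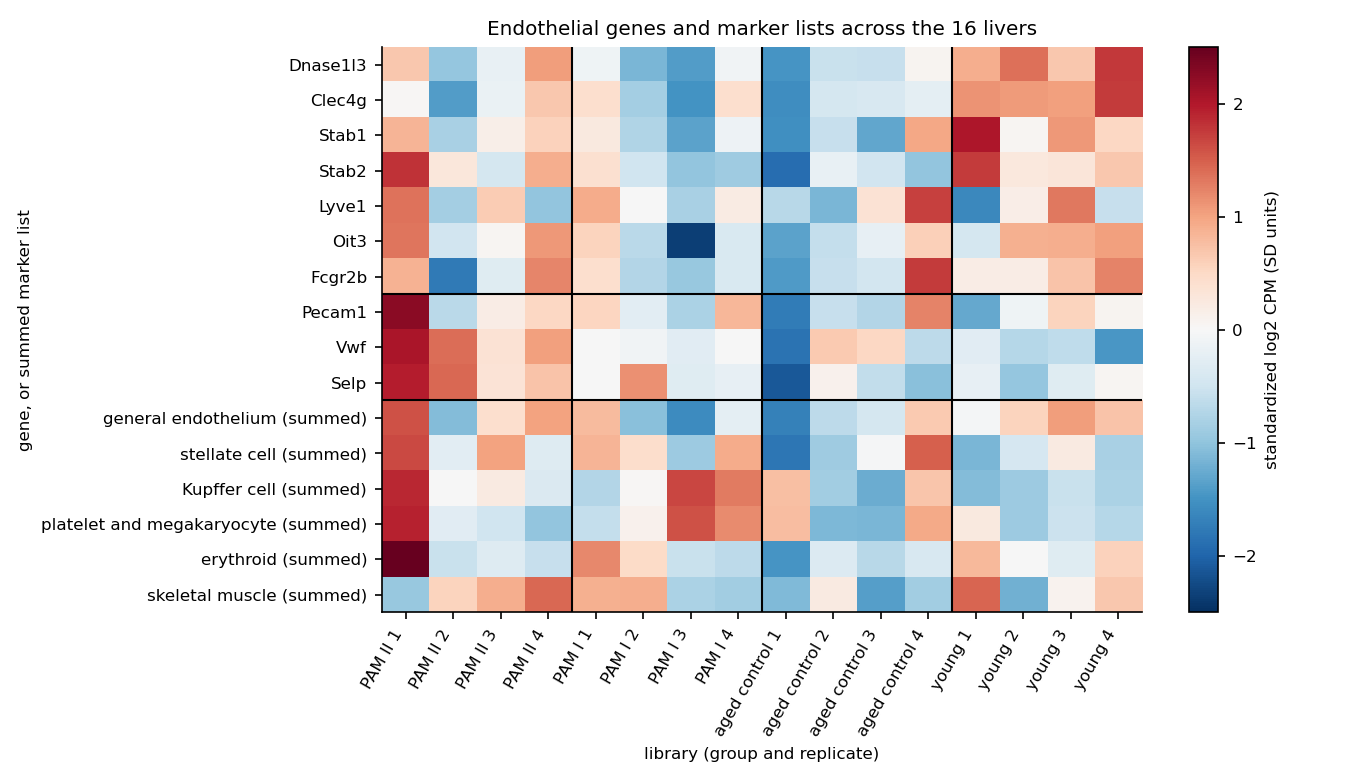
Log2 CPM of the 10 genes (upper rows) and log2 summed CPM of 6 marker lists (lower rows), each standardized to mean 0 and SD 1 over 16 livers (columns, by group), red high and blue low. Dnase1l3 and Clec4g are high in the 4 young livers. PAM II replicate 1 is at the top for Stab2, Oit3, Pecam1, Vwf and Selp and for every summed list shown except skeletal muscle.

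The genes whose pattern over 16 livers was most like the mean standardized level of the 7 sinusoidal genes were ranked by Pearson r among the other tested genes, keeping those whose log2 CPM averaged 1 or more. The 10 highest were Tie1 (0.945), Amotl1 (0.939), Tinagl1 (0.938), Vipr1 (0.926), Gpr182 (0.924), Cyp4b1 (0.923), Tmem132e (0.921), Rasgrp3 (0.919), Fgd5 (0.901) and Cd300lg (0.892). Gpr182 and Cd300lg were on the list of further sinusoidal genes and Tie1 on the general endothelial list. Over the 12 aged livers alone their r ranged between 0.891 for Fgd5 and 0.984 for Gpr182. The values of r describe likeness over shared libraries and carry no test.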

How the data were processed

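Total RNA of 16 mouse livers was sequenced by the submitters as paired reads. The deposited files hold raw counts of fragments per gene, 1 library each. Per the submitters' processing notes, the tools were Trimmomatic 0.38 and HISAT2 2.1.0, the build was mm10, and featureCounts 1.5.0-p2 gave the counts. The file headers name the Ensembl release 99 annotation, exons summed per gene, and strand setting 1. Of 55471 identifiers, 55230 took a symbol from GENCODE M21. No pair of libraries was a copy (at least 22613 genes differed in count).

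The counts were tested with edgeR 4.0.16 under R 4.3.3: filterByExpr by group left 17046 genes, TMM factors were 0.887 to 1.13, and 1 quasi-likelihood fit of all 16 libraries (biological coefficient of variation 27.3%) gave each contrast, two-sided, with Benjamini-Hochberg adjustment over all genes and a threshold of 0.05. Limma 3.58.1 (voom) and DESeq2 1.42.0 were alternatives, and the test was checked on simulated data. CPM is TMM-scaled, log2 CPM for relations has a prior count of 2, and intervals are at the 95% level. Correlations used 100000 permutations in Python 3.11.15. Promoters came from a RefSeq table of GRCm38.p6. The genes named from each list were up to 4 called ones by smallest p, otherwise the 1 with the smallest p. Members and lists were chosen with earlier results of these data known. Covariates for muscle and Kupffer cell lists were added after seeing the data. Ccl21a, whose symbol is not unique, and Tf were not used here.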

Additional observations from a re-analysis of the deposited data

Results flagged for a closer look

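For each of the 10 genes in each group of 4 livers (40 sets), the liver farthest from the others was examined by Dixon's gap test at its 95% critical value. It set apart 3 values, and chance sets apart about 1 in 20. Clec4g was 49.4 CPM in young replicate 4, with the other young livers between 40.4 and 41.4 CPM. Without that liver Clec4g had an adjusted p of 0.0626 in all aged against young livers by edgeR. Oit3 was 14.4 CPM in young replicate 1, below 23.4 to 24.5 CPM in the other young livers. Selp was 2.03 CPM in PAM I replicate 2, with 1.14 to 1.28 CPM in the other PAM I livers.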

How the results depend on the processing

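No paired analysis was possible because the numbers in the titles run over all samples and pair no livers across groups. The number of genes called in aged control against young livers (551) was 1343 with DESeq2, 198 in a fit of only these groups, 231 without the 6 aged livers with muscle transcripts, 155 without aged control replicate 4 and young replicate 1, 305 with a muscle covariate and 896 with a Kupffer cell covariate. It was 199 to 573 with 1 library left out, and 199, 271 and 284 without young replicate 4, young replicate 1 and aged control replicate 4. For all aged against young livers (1894) it was 3045 with DESeq2, 1106 without that pair of livers, and 905 to 1930 with 1 left out, 905 without young replicate 4 and 1028 without young replicate 1. The fit without the 6 aged livers kept PAM II replicate 1 alone for its group. That liver had the highest Kupffer cell, platelet and erythroid sums. The counts this fit gave for PAM II, listed next, set 1 liver against the others, so an effect of antibiotics was not tested by them. The antibiotic comparisons had no called gene, but DESeq2 gave 15 for PAM I against aged control, and without the 6 livers there were 3, 32 for PAM II against aged control and 12 for PAM II against PAM I. Of the 10 endothelial genes, 2 were called in aged control against young livers, 1 in a fit of only these groups, and 0 without the 6 livers, without the pair of livers or with a muscle covariate, and 0 to 1 with 1 library left out. For all aged against young livers it was 0 to 3 with 1 left out, 0 without young replicate 4.

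No called value of the 10 genes changed sign. The values that changed sign were not called, and the cause was not tested. In PAM I against aged control, limma voom gave 0.011 for Dnase1l3, 0.058 for Fcgr2b, 0.028 for Oit3 and 0.491 for Lyve1. Without the pair of livers the values were 0.09 for Dnase1l3, 0.11 for Fcgr2b, 0.057 for Oit3, 0.445 for Lyve1 and -0.057 for Vwf. The Kupffer covariate gave 0.011 for Dnase1l3 and the muscle covariate 0.213 for Lyve1. Stab1 was -0.001 with RLE scaling and with DESeq2, -0.007 in a fit of only these groups, -0.12 without the 6 livers and -0.058 with the muscle covariate. Lyve1 in aged control against young was -0.46 with voom, -0.705 without the pair and -0.128 with the muscle covariate. In all aged against young it was -0.196 with voom, -0.368 without the pair and -0.017 with the Kupffer covariate. In PAM II against aged control it was 0.30 with voom, 0.304 with the muscle covariate, 0.503 without the 6 livers and 0.567 without the pair. In PAM II against PAM I it was -0.191 with voom and -0.039 with the Kupffer covariate. Pecam1 in all aged against young was -0.113 with voom and -0.093 without the pair.

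With 1 library left out in turn, 37 values changed sign. Lyve1 ranged from -0.428 to 0.774 in aged control against young, -0.152 to 0.685 in all aged against young, -0.49 to 0.445 in PAM I against aged control, -0.534 to 0.566 in PAM II against aged control and -0.331 to 0.408 in PAM II against PAM I. Pecam1 ranged from -0.319 to 0.086 in aged control against young, -0.007 to 0.225 in all aged against young and -0.021 to 0.38 in PAM II against PAM I. In PAM I against aged control the ranges were -0.154 to 0.089 for Dnase1l3, -0.245 to 0.109 for Fcgr2b, -0.392 to 0.081 for Oit3, -0.125 to 0.246 for Stab1, -0.002 to 0.217 for Stab2 and -0.183 to 0.189 for Vwf. Fcgr2b ranged from -0.089 to 0.282 in PAM II against aged control, and Clec4g from -0.061 to 0.207 in PAM II against PAM I.

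Each group had 4 livers, so a 2-fold change was not always detectable, and counts of Selp were as low as 27.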

Other observations

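Genes of other liver cells were also compared between all aged and young livers, in which 6.12% of all genes were called higher and 4.99% lower. Of 14 Kupffer cell genes 2 were higher. Vsig4, a complement receptor, averaged 43.2 ± 32.0 CPM in 12 aged livers and 13.1 ± 1.88 CPM in 4 young livers (log2 fold change 1.65 ± 0.51, edgeR adjusted p = 0.0497), and Adgre1, the macrophage marker F4/80, 20.96 ± 13.4 CPM in aged livers and 7.35 ± 4.02 CPM in young livers (1.45 ± 0.44, adjusted p = 0.0452). Both overlapped between groups. Pf4, a platelet chemokine also found in macrophages, had 0.614 to 19.7 CPM in aged livers and 0.214 to 0.590 CPM in young livers with no overlap (3.50 ± 1.03, adjusted p = 0.0393), and was the 1 called of 7 platelet genes tested.

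Of 7 erythroid genes, Alas2, the heme synthesis enzyme of red cell precursors, was lower, with 78.5 ± 18.6 CPM in aged livers and 138 ± 8.57 CPM in young livers and no overlap (-0.815 ± 0.17, edgeR adjusted p = 0.00744). None of 8 B cell genes was called (4 at an unadjusted p under 0.05, all 8 positive, median 0.99), nor any of 12 stellate cell genes (4 at an unadjusted p under 0.05, median 0.30) or 13 skeletal muscle genes (0 at an unadjusted p under 0.05, all 13 negative, median -1.38). DESeq2, which called 17.9% of all genes, called 4 B cell, 2 stellate cell and 0 muscle genes, and limma voom, which called 11.9%, called 1 B cell gene and none of the others. Kupffer cell and platelet calls were unsteady: with 1 library left out, Vsig4 was called in 5, Adgre1 in 6 and Pf4 in 9 of 16 fits, whereas Alas2 was called in all 16. Without the 6 aged livers with muscle transcripts, the log2 fold change was 2.29 for Vsig4 and 1.92 for Adgre1. That fit kept PAM II replicate 1 alone for its group, and it kept all young livers. Kupffer cell sums of the aged livers it kept were 914.7, 255.7 and 872.2 CPM (control), 1640 and 1283 CPM (PAM I) and 1867 CPM (PAM II). Its count of called Kupffer cell genes is therefore not given.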
